A study of Rattus norvegicus with 94 samples.

Results

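Genes for the division of peroxisomes, for their membrane proteins and for catalase were followed in rat liver. The members were the 13 probe sets, of 8799 on the array, whose platform symbol was Pex11a, Pex2, Pex19, Pxmp2, Abcd3, Cat or Mpv17l, which gave 7 genes of 4737 symbols. They were chosen by symbol across the 18 groups of individual animals, with earlier results of these data known. Livers came from male SD rats given a single dose of sodium valproate (VPA, an anticonvulsant that is a branched fatty acid) at 2000 mg/kg, of clofibrate (a lipid-lowering fibrate drug) at 1000 mg/kg, or of the plasticizer DEHP, di(2-ethylhexyl) phthalate, at 20 g/kg. The treated groups held 3 animals each at 4 and at 24 h, and 5 at 48 and at 168 h, or 4 for VPA. Each compound had its own vehicle animals, 5 at 48 h and 5 at 168 h, which received saline for clofibrate and distilled water for VPA and DEHP. Ages were not given in the sources used here, and nothing beyond separate sample names says that animals of a group were handled apart, so p-values measure the spread between these arrays.

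Peroxisomes are small organelles that shorten very-long-chain and branched fatty acids and break down the hydrogen peroxide which their oxidases release. In rodent liver, fibrates and phthalates activate the nuclear receptor PPARα, and peroxisomes multiply. Pex11a is a membrane protein that elongates peroxisomes before they divide. Pex19 binds newly made peroxisomal membrane proteins and brings them to the organelle, and Pex2 is part of the membrane ubiquitin ligase that recycles the import receptor for matrix enzymes. Abcd3 (PMP70) is the transporter that carries fatty acids and bile acid intermediates across the membrane, Pxmp2 (PMP22) forms a channel for small solutes, and Cat is catalase, the matrix enzyme that breaks down hydrogen peroxide. Mpv17l is a relative of Pxmp2 and was described as a peroxisomal protein in mouse.

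The values were MAS5 signals that the authors scaled to 1500 on each array, on the linear scale. A signal of 1 probe set can be compared between arrays, but not with the signal of another probe set, so no order of levels between genes is given. Signals under 150 were raised to 150 before log2 was taken, and a probe set was tested where any group of the fit averaged 500 or more. This left 11 member probe sets in the clofibrate fit, 8 in the DEHP fit and 9 in the VPA fit. Pex11a AJ224120_at and Pex19 entered the clofibrate and VPA fits through treated groups alone, Pex2 entered both through vehicle groups alone, and Mpv17l rc_AA892541_at entered the clofibrate fit through the 48 h vehicle group alone. A change was called at an adjusted p under 0.05 in limma, over all probe sets of the fit. Groups at 48 and 168 h were set against the vehicle group of that time. Groups at 4 and 24 h had no vehicle group of their own and were set against both vehicle groups of the compound, so at these times the dose and the time of sampling cannot be told apart.

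The arrays of the clofibrate set stood apart in RNA quality. The log2 ratio of 3' to 5' control signal averaged 1.38 ± 0.65 in the clofibrate set, 0.33 ± 0.14 in the DEHP set and 0.34 ± 0.14 in the VPA set (SD, n = 26, 26 and 24 arrays). Of the 8 hepatocyte markers all 8 were on the array, and their summed signal lay between 198206.0 and 727594.6 over the 76 individual arrays. The vehicle animals' Mpv17l signal on probe set rc_AA892541_g_at averaged 977 ± 413 in the clofibrate set, against 216 ± 91.8 in the DEHP set and 416 ± 136 in the VPA set (SD, n = 10 each). Sets were arrayed apart, so an effect of the set and a difference between vehicle animals cannot be told apart.

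Promoters of 3 members that were called higher (Pex11a, Abcd3 and Pex19) and of catalase, which was not, are shown because the products of all 4 serve the same organelle. The windows come from RefSeq, build GRCr8, and are read 5′ to 3′ on the strand of the gene. Those of Pex11a, Abcd3, Cat and Pxmp2 hold 250 bases before the annotated start of the gene and 50 from it onward, and that of Pex19 holds 206 before it and 94 from it onward. Capitals mark AGGTCA (the half-site of nuclear receptors such as PPARα), CCAAT (a box bound by nuclear factor Y) and GGGCGG (the GC box), each searched on both strands.
Pex11a promoter, chr1:143096442-143096741, minus strand: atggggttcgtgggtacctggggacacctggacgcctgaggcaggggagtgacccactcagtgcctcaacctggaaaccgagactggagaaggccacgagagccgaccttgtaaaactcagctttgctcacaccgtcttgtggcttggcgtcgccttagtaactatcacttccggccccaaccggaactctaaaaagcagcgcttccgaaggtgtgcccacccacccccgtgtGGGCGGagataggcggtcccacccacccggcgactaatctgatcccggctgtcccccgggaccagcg
Abcd3 promoter, chr2:212590330-212590629, minus strand: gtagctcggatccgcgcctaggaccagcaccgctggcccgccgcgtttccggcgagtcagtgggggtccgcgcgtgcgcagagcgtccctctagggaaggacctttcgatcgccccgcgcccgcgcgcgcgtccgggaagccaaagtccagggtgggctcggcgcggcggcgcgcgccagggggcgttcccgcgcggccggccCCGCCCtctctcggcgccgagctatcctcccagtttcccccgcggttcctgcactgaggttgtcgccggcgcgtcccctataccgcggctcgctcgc
Pex19 promoter, chr13:87124448-87124747, plus strand: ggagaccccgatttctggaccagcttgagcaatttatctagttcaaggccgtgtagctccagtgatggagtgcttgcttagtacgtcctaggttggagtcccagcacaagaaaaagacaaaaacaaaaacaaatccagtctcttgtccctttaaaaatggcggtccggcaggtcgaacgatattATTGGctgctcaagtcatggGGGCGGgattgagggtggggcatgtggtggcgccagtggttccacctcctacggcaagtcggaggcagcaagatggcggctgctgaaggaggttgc
Cat promoter, chr3:110329477-110329776, minus strand: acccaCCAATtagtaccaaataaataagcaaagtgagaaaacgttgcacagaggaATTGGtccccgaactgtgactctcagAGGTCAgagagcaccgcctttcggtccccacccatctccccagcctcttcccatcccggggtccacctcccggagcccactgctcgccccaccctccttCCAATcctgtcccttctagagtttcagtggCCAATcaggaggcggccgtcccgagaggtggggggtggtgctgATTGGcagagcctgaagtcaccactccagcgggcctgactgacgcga
The direct repeat AGGTCANAGGTCA, the form to which PPARα binds with its partner RXR, was found in 0 of the 5 member windows and in 0.0538% of 33469 windows of the same length. The half-site AGGTCA was in the catalase window alone among the 5, and in 16.2% of all windows. Catalase held 5 matches to CCAAT, which is in 37.5% of all windows, and Pxmp2 and Pex19 held 1 each. The GC box was in the windows of Pex11a, Abcd3, Pxmp2 and Pex19, but not of catalase, and in 33.1% of all windows. No motif overlapped another in these windows. These matches describe only the letters of these windows, and more distant sequence was not searched. Windows of Pex2 and Mpv17l were not used here.

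Pex11a rose after each of the compounds, on both of its probe sets, and its largest rises stood at 24 or 48 h. In bulk liver, more RNA per cell and more cells of a type that carries the transcript cannot be told apart.

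**Figure D1:**
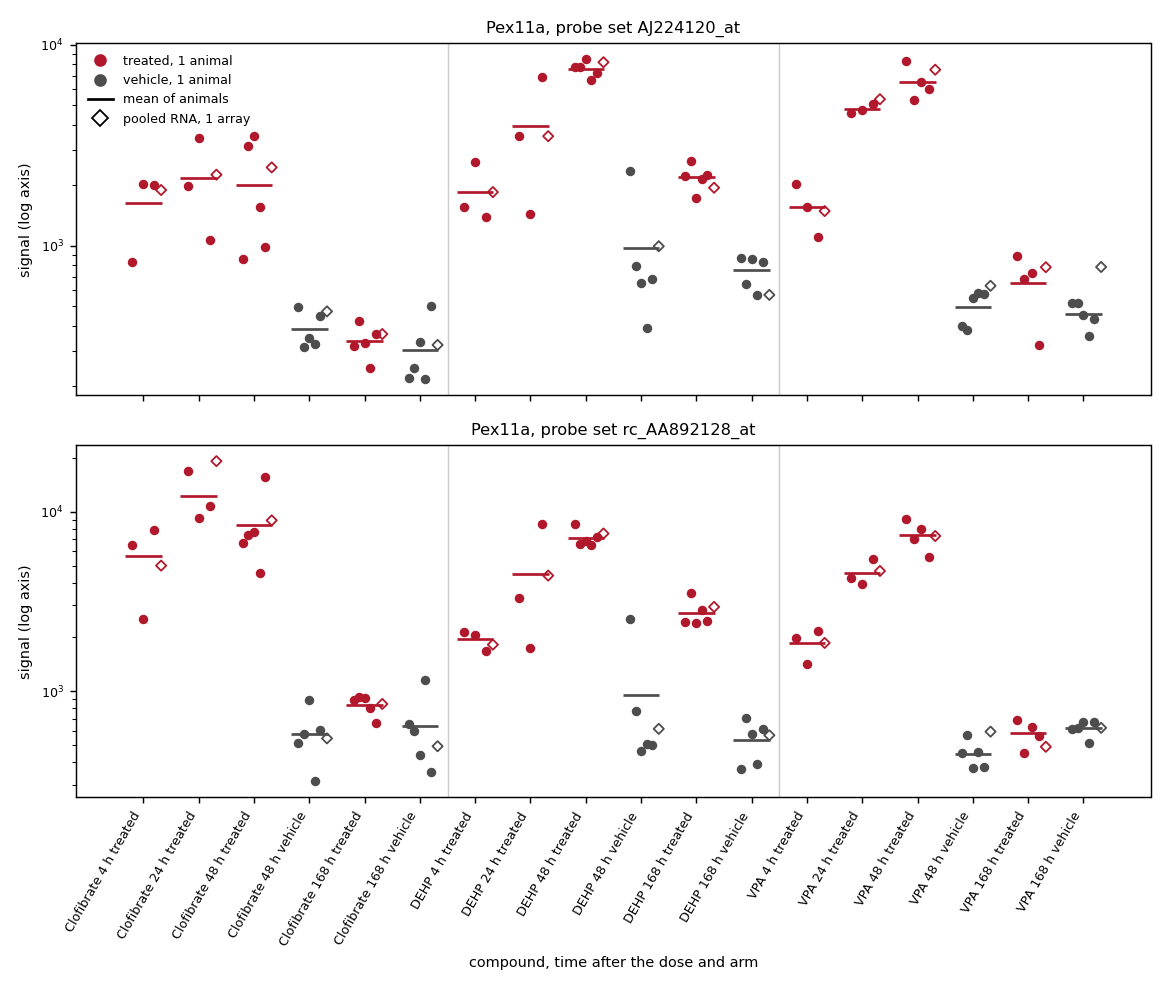
Pex11a signal (log axis) by compound, time and arm on both probe sets, with 1 point per animal, a line at the mean and an open diamond for the array of pooled RNA. All treated points lie above all vehicle points at 48 h in each compound, and at 168 h only after DEHP.

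On probe set AJ224120_at the VPA-treated animals at 48 h gave 8309.2, 5328.5, 6501.3 and 6031.3, against 398.9, 378.7, 549.7, 583.8 and 576.3 in their vehicle animals. Every treated animal was above every vehicle animal. The log2 change was 3.72 ± 0.23 (SE), a 13.2-fold rise, with an adjusted p of 3.459e-11 in limma. This probe set passed the filter of the VPA and clofibrate fits only through treated groups. Its calls at 4, 24 and 48 h after both compounds held with no filter.

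The other probe set, rc_AA892128_at, gave 9130.6, 7038.7, 7943.6 and 5552.3 in the VPA-treated animals at 48 h, against 448.6, 571.3, 372.6, 458.7 and 377.7 in their vehicle animals. Here too the groups did not overlap, and the rise was 16.6-fold (log2 change 4.05 ± 0.17, adjusted p = 2.123e-14 in limma).

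After clofibrate for 48 h, rc_AA892128_at gave 6653.7, 7382.5, 7717.2, 4529.7 and 15665.6 in treated animals, against 510.8, 576.7, 886.7, 314.1 and 609.4 in vehicle animals. The groups were apart, and the rise was 14.0-fold (log2 change 3.81 ± 0.35, adjusted p = 1.463e-08 in limma). On AJ224120_at the treated animals gave 863.8, 3120.2, 3505.5, 1564.4 and 981.6, against 494.2, 314.1, 349.1, 324.9 and 448.7 in vehicle animals, a 4.50-fold rise (log2 change 2.17 ± 0.37, adjusted p = 1.849e-04). The difference between the 2 probe sets was not tested. In the clofibrate set AJ224120_at fell with the ratio of 3' to 5' signal by 0.63 per unit of log2 ratio (adjusted p = 7.387e-04 in limma). The slope of rc_AA892128_at was 0.34 and was not called (adjusted p = 0.0801). With the ratio as a covariate the log2 changes at 48 h were 1.85 on AJ224120_at and 3.98 on rc_AA892128_at (adjusted p = 2.71e-05 and 1.14e-09).

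DEHP raised Pex11a 9.45-fold at 48 h on AJ224120_at (log2 change 3.24 ± 0.35, adjusted p = 9.981e-08 in limma). The treated animals gave 7789.2, 7708.9, 8461.4, 6670.8 and 7259.4, and the vehicle animals 2359.3, 793.3, 655.4, 389.1 and 682.3. Vehicle replicate 1 stood well above the other vehicle animals and yet below every treated animal. On rc_AA892128_at the treated animals gave 8553.0, 6622.8, 6847.8, 6525.6 and 7176.6, against 2520.6, 774.2, 464.9, 507.2 and 503.0 in vehicle animals, with the same animal high. Without that animal the log2 changes at 48 h were 3.63 on AJ224120_at and 3.69 on rc_AA892128_at, against 3.24 and 3.25 with it. It held the highest of the 10 DEHP vehicle signals in 22.9% of the 523 probe sets called higher at 48 h and in 14.1% of all 4092 probe sets tested. What sets this animal apart was not tested.

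The rise of Pex11a was already seen at 4 h. VPA gave 2019.5, 1563.3 and 1103.0 on AJ224120_at at 4 h, against a lowest of 357.1, a median of 485.1 and a highest of 583.8 over 10 vehicle animals, a 3.23-fold rise (log2 change 1.69 ± 0.23, adjusted p = 3.581e-05 in limma). Clofibrate gave 6529.3, 2517.9 and 7881.7 on rc_AA892128_at at 4 h, against 314.1, 586.1 and 1153.6 as the lowest, median and highest of 10 vehicle animals, an 8.91-fold rise (log2 change 3.16 ± 0.36, adjusted p = 2.606e-06). Both groups lay wholly above their vehicle animals. On AJ224120_at the rise at 4 h after clofibrate was 4.55-fold (log2 change 2.19 ± 0.39, adjusted p = 8.838e-04 in limma). After DEHP for 4 h rc_AA892128_at rose 3.15-fold (log2 change 1.65 ± 0.38, adjusted p = 0.0148 in limma), a call that was lost without any 1 of the 3 treated animals and with scan day as a block (adjusted p = 0.0689). AJ224120_at changed by 1.21 ± 0.37 (log2) there and was not called (adjusted p = 0.0811), but reached an adjusted p of 0.00584 without DEHP 48 h vehicle replicate 1.

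At 24 h the VPA-treated animals gave 4554.5, 4728.9 and 5073.1 on AJ224120_at, a tight group 10.2-fold above vehicle (log2 change 3.35 ± 0.23, adjusted p = 2.461e-10 in limma). The DEHP-treated animals spread widely at 24 h, with 3534.3, 1444.9 and 6873.4 on AJ224120_at, and replicate 2 lay below the high vehicle animal. The rise was 4.25-fold (log2 change 2.09 ± 0.37, adjusted p = 9.096e-05). Clofibrate for 24 h gave the largest change of any member probe set over the 12 comparisons, 20.8-fold on rc_AA892128_at, with 16726.1, 9223.3 and 10742.3 in treated animals (log2 change 4.38 ± 0.36, adjusted p = 2.719e-09). On AJ224120_at the rise in the same animals was 5.88-fold (log2 change 2.56 ± 0.39, adjusted p = 5.338e-05 in limma).

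At 168 h Pex11a was still higher after DEHP. On AJ224120_at the DEHP-treated animals gave 2232.0, 2649.1, 1718.6, 2144.3 and 2248.5, against 870.5, 644.8, 859.8, 566.1 and 829.6 in vehicle animals, with no overlap and a 2.93-fold rise (log2 change 1.55 ± 0.35, adjusted p = 0.0092 in limma). On rc_AA892128_at the rise was 5.22-fold (log2 change 2.38 ± 0.37, adjusted p = 1.212e-04). At the same time VPA-treated animals gave 690.6, 451.0, 628.4 and 561.1 on rc_AA892128_at, against 615.5, 625.0, 671.9, 512.9 and 676.0 in vehicle animals, and the groups overlapped (log2 change -0.10 ± 0.17, adjusted p = 0.956). Clofibrate for 168 h gave a log2 change of 0.50 ± 0.35 on this probe set (adjusted p = 1).

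The difference in response at 168 h was itself tested in the fit of all 18 groups. On rc_AA892128_at the DEHP response exceeded the VPA response by 2.49 ± 0.47 (log2, adjusted p = 5.822e-04 in limma), and the clofibrate response was below the DEHP response by a log2 difference of -1.88 ± 0.45 (adjusted p = 0.0175). On AJ224120_at the same differences were 1.11 ± 0.49 and -1.35 ± 0.48 and neither was called (adjusted p = 0.630 and 0.316). Earlier, the clofibrate response exceeded the DEHP response at 24 h by 1.82 ± 0.47 on rc_AA892128_at (adjusted p = 0.02), while on AJ224120_at the difference was 0.47 ± 0.50 and was not called (adjusted p = 0.775). It was below the VPA response at 48 h on AJ224120_at by a log2 difference of -1.55 ± 0.49 (adjusted p = 0.0281), and on rc_AA892128_at the difference was -0.24 ± 0.47 and was not called (adjusted p = 0.819). The doses differed between the compounds, as did the sets of arrays.

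Over the 11 member probe sets of this fit and its 12 differences between compounds, 8 were called. At 4 h limma called 0 members for clofibrate minus DEHP, clofibrate minus VPA and DEHP minus VPA, where 0.266%, 4.33% and 4.29% of 4503 probe sets were called, and 3, 3 and 1 members had an unadjusted p under 0.05. At 24 h, in the same order, 2, 0 and 0 members were called, beside 2.2%, 8.86% and 4.62% of all, and 5, 5 and 1 had an unadjusted p under 0.05. At 48 h 2, 2 and 0 were called, beside 2.07%, 11.3% and 7.97%, with 4, 4 and 0 at an unadjusted p under 0.05. At 168 h 1, 0 and 1 were called, beside 0.777%, 0% and 0.777%, with 3, 0 and 2 at an unadjusted p under 0.05.

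Differences between times within a compound were tested as well. The VPA response of Pex11a grew between 4 and 24 h by 1.66 ± 0.28 on AJ224120_at and by 1.31 ± 0.21 on rc_AA892128_at (log2, adjusted p = 5.611e-04 and 2.130e-04 in limma), and between 24 and 48 h by 0.93 ± 0.21 on rc_AA892128_at (adjusted p = 0.0162). Between 48 and 168 h it fell by 3.28 and 4.15 on the same scale. The clofibrate response did not differ past the threshold between 24 and 48 h (log2 difference -0.57 ± 0.44 on rc_AA892128_at, adjusted p = 0.707) and was lower by 3.30 ± 0.49 at 168 h than at 48 h (adjusted p = 6.680e-05). After DEHP the fall between 48 and 168 h was called on AJ224120_at (log2 difference -1.69 ± 0.50, adjusted p = 0.0249) and not on rc_AA892128_at (-0.87 ± 0.52, adjusted p = 0.291).

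Over all members, differences between neighbouring times were called 20 times. Between 4 and 24 h, 1 of 11 was called after clofibrate, 0 of 8 after DEHP and 4 of 9 after VPA, where 5.12%, 21.6% and 11.8% of all probe sets were. Between 24 and 48 h the members called numbered 0, 0 and 1, beside 0.221%, 1.34% and 2.41% of all. Between 48 and 168 h they numbered 6, 3 and 5, beside 5.89%, 13.6% and 23.5%. Where limma called 0 members, an unadjusted p under 0.05 was reached by 1 for DEHP between 4 and 24 h, and by 3 for clofibrate and 2 for DEHP between 24 and 48 h.

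Over the 12 comparisons with vehicle, 49 changes of member probe sets were called. The plot of log2 changes by time shows them as filled points.

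**Figure D2:**
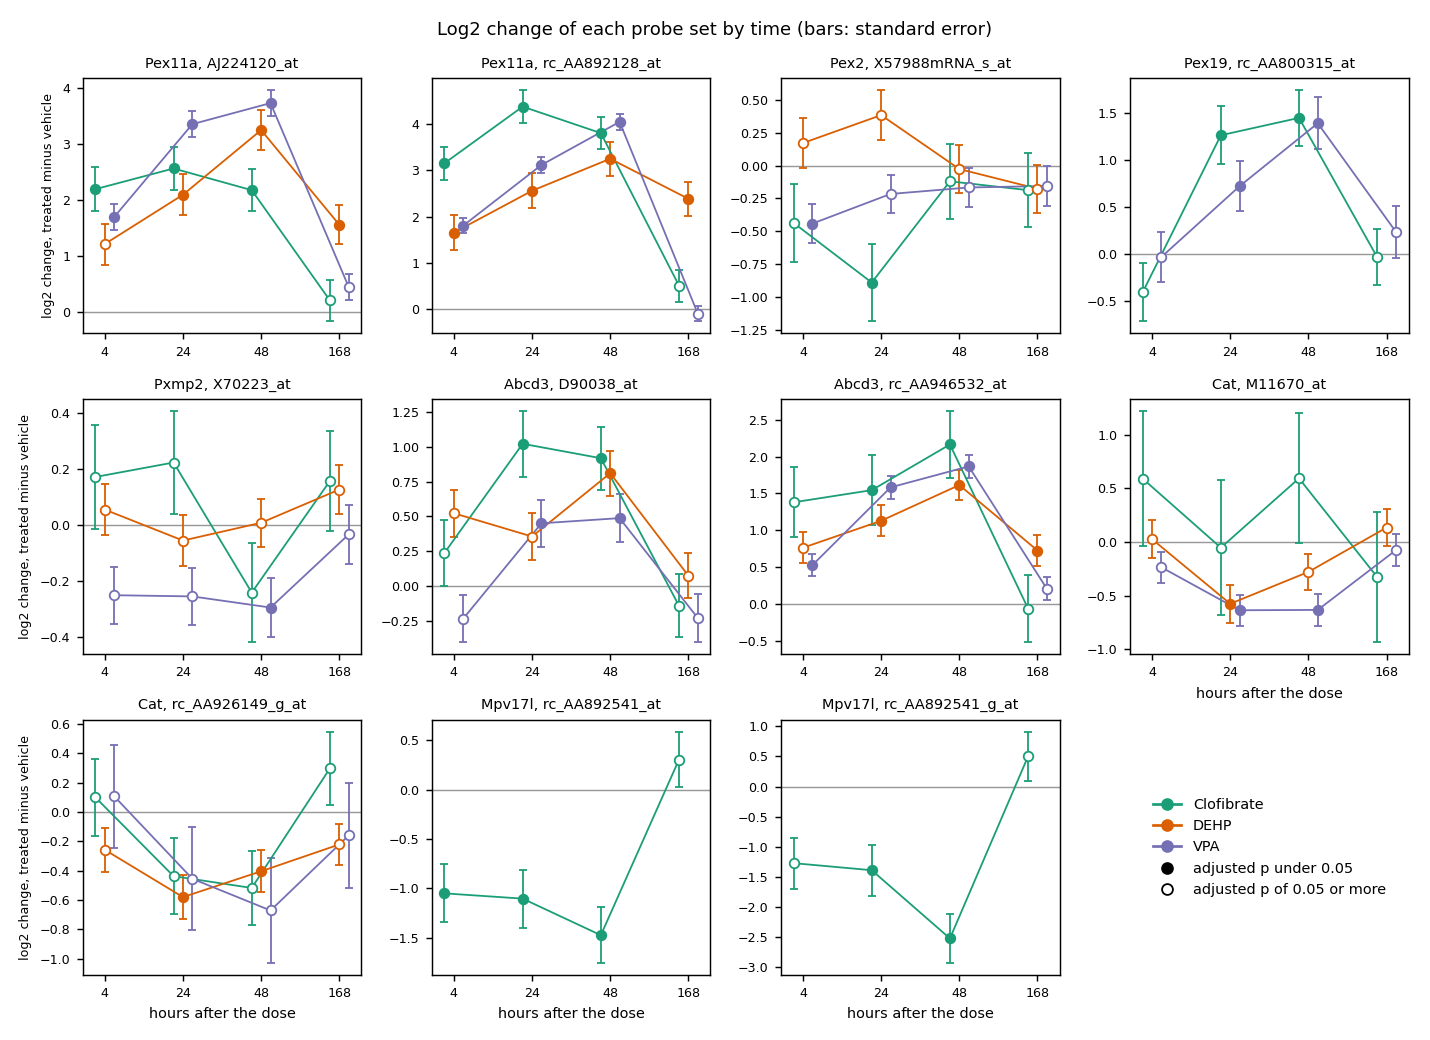
Log2 change (treated minus vehicle, vertical axis) against hours after the dose for the 11 member probe sets that were tested in at least 1 fit, with 1 line per compound and bars of 1 standard error. Pex11a and Abcd3 rc_AA946532_at rise in each compound, Mpv17l falls in the clofibrate set, and the axes differ between panels.

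After clofibrate 3, 8, 7 and 0 of the 11 tested were called at 4, 24, 48 and 168 h, where 3.43%, 13.5%, 20% and 0% of all 3616 probe sets tested were called. Of these members 2, 5 and 5 were higher at 4, 24 and 48 h, where 2.43%, 5.75% and 7.27% of all probe sets were, and 1, 3 and 2 were lower, where 0.996%, 7.74% and 12.7% were. After DEHP 1, 5, 5 and 3 of 8 were called at the 4 times, where 2.88%, 32.6%, 33.8% and 3.62% of 4092 were. The higher ones numbered 1, 3, 4 and 3, beside 1.54%, 15.1%, 12.8% and 2.13% of all, and the lower ones 0, 2, 1 and 0, beside 1.34%, 17.5%, 21.1% and 1.49%. After VPA 4, 6, 7 and 0 of 9 were called, where 21.2%, 36.5%, 39.7% and 0% of 4269 were. Higher calls were 3, 5 and 5 at 4, 24 and 48 h, beside 14.4%, 20.9% and 21.3% of all, and lower calls were 1, 1 and 2, beside 6.79%, 15.6% and 18.4%. At 168 h after clofibrate and after VPA limma also gave 0 members at an unadjusted p under 0.05. The median log2 change of the tested members at 48 h was 0.59 after clofibrate, 0.41 after DEHP and 0.49 after VPA, and that of all probe sets tested was -0.13, -0.11 and -0.01.

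Pex19, the carrier of membrane proteins, was called higher at 24 and 48 h after clofibrate and VPA. In both fits it passed the filter on low signals only through the treated groups at these times. With no filter the 48 h calls held (adjusted p = 0.00386 after clofibrate and 0.00125 after VPA in limma), as did that at 24 h after clofibrate (0.0197), but not that at 24 h after VPA (0.0891). At 4 h its change did not pass the test after clofibrate (log2 change -0.41 ± 0.31, adjusted p = 0.609 in limma) or after VPA (-0.03 ± 0.27, adjusted p = 0.953). Clofibrate for 24 h gave 991.5, 1059.1 and 1213.1, all above a highest vehicle signal of 728.7, a 2.40-fold rise (log2 change 1.27 ± 0.31, adjusted p = 0.0069). At 48 h the clofibrate-treated animals gave 1718.4, 1010.2, 715.4, 961.3 and 2323.3, against 416.7, 383.9, 526.9, 493.8 and 437.3 in vehicle animals. The groups did not overlap, and the rise was 2.73-fold (log2 change 1.45 ± 0.30, adjusted p = 0.0012). The response at 24 h exceeded that at 4 h by 1.68 ± 0.38 (log2, adjusted p = 0.0089), and that at 168 h was below that at 48 h by 1.49 ± 0.42 (adjusted p = 0.0336). Both differences include a treated group through which Pex19 passed the filter, and their values with no filter are not given here. In the clofibrate set Pex19 climbed by 0.44 per unit of log2 3' to 5' ratio (adjusted p = 0.0042 in limma). Its calls at 24 and 48 h held with the ratio as a covariate.

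VPA for 48 h gave Pex19 signals of 1086.3, 760.7, 1824.9 and 719.8, against 447.3, 273.1, 360.1, 327.8 and 614.9 in vehicle animals. All treated animals were above the vehicle animals, with a 2.63-fold rise (log2 change 1.39 ± 0.28, adjusted p = 2.815e-04 in limma). The smaller rise at 24 h (log2 change 0.72 ± 0.27, adjusted p = 0.0400) was lost without any 1 of 7 arrays, namely treated replicates 1 and 2, 48 h vehicle replicates 2, 3 and 4, and 168 h vehicle replicates 2 and 5. In the DEHP set Pex19 averaged under 500 in every group and was not tested in the main fit. Its signals at 48 h were 552.0, 462.2, 413.2, 389.8 and 361.3 in treated animals, against 366.7, 214.8, 281.8, 240.2 and 262.1 in vehicle animals, so the groups overlapped by 1 animal. At 168 h the DEHP-treated animals lay between 361.9 and 489.2 and the vehicle animals between 167.0 and 317.3. With all 8740 probe sets tested, the log2 changes of 0.68 at 48 h and 0.77 at 168 h were called (adjusted p = 0.0104 and 0.0263 in limma).

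Pex2, a subunit of the ubiquitin ligase in the membrane, was called on probe set X57988mRNA_s_at in 2 of its 12 comparisons, each time lower. In the VPA and clofibrate fits it passed the filter only through vehicle groups. After VPA for 4 h it gave 380.7, 348.4 and 411.8, against a lowest of 440.3, a median of 513.4 and a highest of 644.4 in vehicle animals, a log2 change of -0.44 ± 0.15 (adjusted p = 0.0352 in limma). This call was lost without any 1 of the 3 treated animals, of 168 h vehicle replicate 1 or of 48 h vehicle replicate 5. With no filter it held, but it was lost with scan day as a block and in 1 fit of all 18 groups (adjusted p = 0.0853 and 0.198). It was lost too with replicate number as a block and against either vehicle group alone. Clofibrate for 24 h gave 334.9, 374.7 and 165.2, against 288.9, 568.2 and 800.1 as the lowest, median and highest vehicle signal, and the groups overlapped. That change of -0.89 ± 0.30 (log2, adjusted p = 0.0462) was lost with no filter, with scan day as a block (adjusted p = 0.105 and 0.0502) and without any 1 of 16 of the 26 arrays of the set. It held without any 1 of 4 h treated replicate 1, 24 h treated replicate 2, 48 h treated replicates 1, 3, 4 and 5, and vehicle replicates 3 and 4 of both times. In the clofibrate set Pex2 fell by 0.49 per unit of log2 3' to 5' ratio (adjusted p = 5.67e-04 in limma). Treated replicate 3 at 24 h, with the signal of 165.2, had the highest ratio of the set (2.74). The call held with the ratio as a covariate but was lost without the 4 arrays deposited to 1 decimal, which include this replicate. The clofibrate response at 24 h was below the DEHP response by a log2 difference of -1.27 ± 0.31 (adjusted p = 0.0119). The other Pex2 probe set, E03344cds_s_at, averaged under 500 in every group and ranged between 8.3 and 581.0 over the 76 individual arrays, with 12 of them under the floor.

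Abcd3, the fatty acid transporter, was called higher after each compound on both of its probe sets, though on D90038_at after VPA the pooled RNA had the opposite sign.

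**Figure D3:**
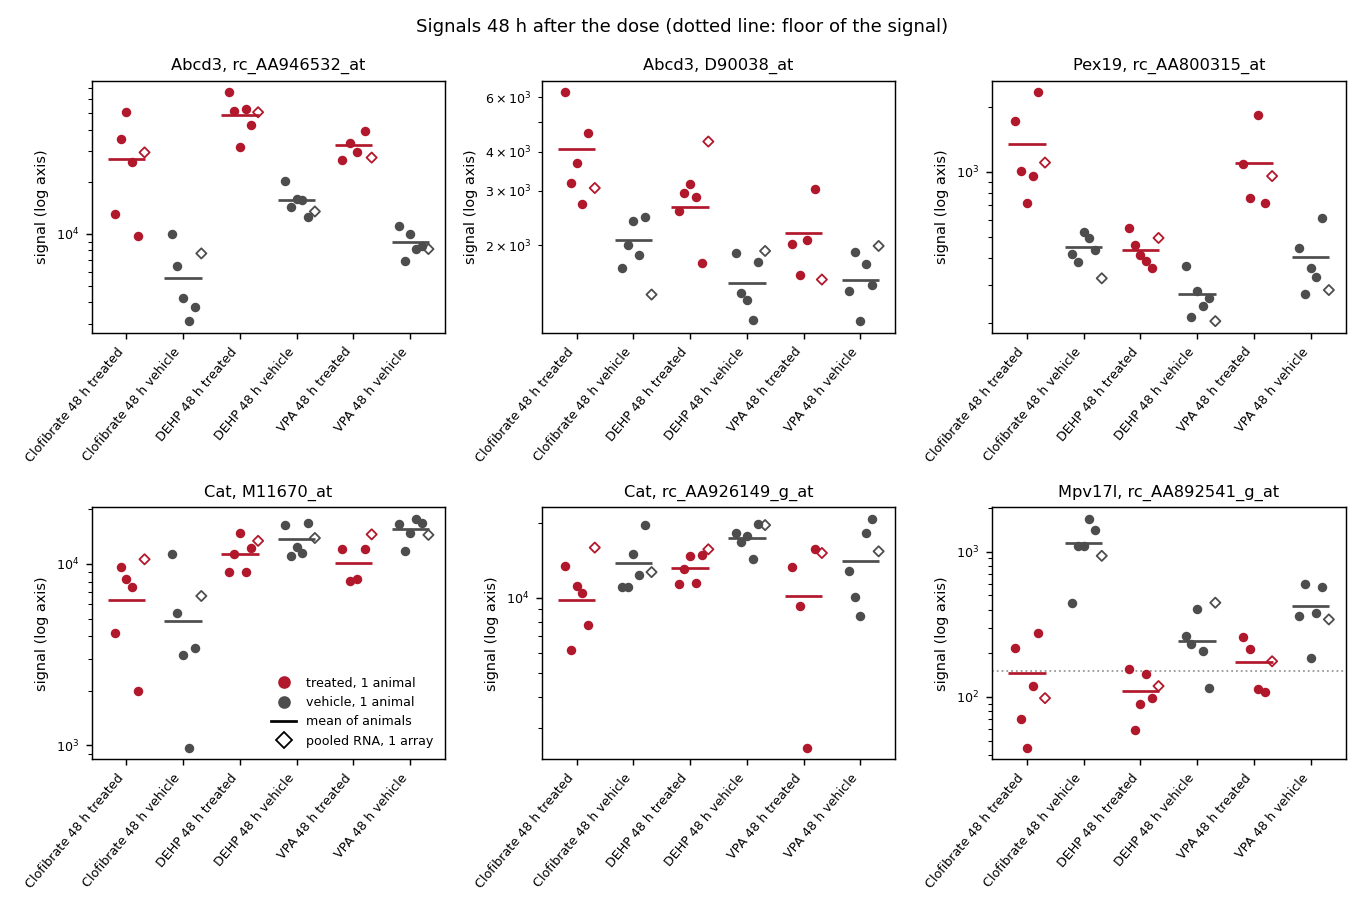
Signals (log axis) of 6 member probe sets 48 h after the dose, with 1 point per animal, a line at the mean and an open diamond for pooled RNA. Abcd3 and Pex19 lie mostly higher in treated animals and Mpv17l mostly lower, while both catalase probe sets overlap between the arms in all 3 sets.

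On rc_AA946532_at the VPA-treated animals at 48 h gave 26852.1, 33445.3, 29895.4 and 39550.6, against 11021.6, 6922.6, 9956.5, 8141.3 and 8531.6 in vehicle animals. The groups were far apart, and the rise was 3.65-fold (log2 change 1.87 ± 0.16, adjusted p = 2.266e-09 in limma). After DEHP for 48 h it gave 65699.6, 51118.4, 31685.9, 52530.8 and 42619.3, against 20121.1, 14339.1, 15846.4, 15559.6 and 12489.9 in vehicle animals, a 3.06-fold rise without overlap (log2 change 1.61 ± 0.20, adjusted p = 1.114e-06).

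Clofibrate for 48 h gave 13030.8, 35133.5, 50956.8, 25888.9 and 9669.7 on rc_AA946532_at, against 9994.5, 6473.0, 4253.1, 3115.1 and 3758.8 in vehicle animals. Treated replicate 5 lay below vehicle replicate 1, and the rise was 4.48-fold (log2 change 2.16 ± 0.46, adjusted p = 0.0015 in limma). In the clofibrate set this probe set fell by 1.05 per unit of log2 3' to 5' ratio (adjusted p = 7.969e-09). With the ratio as a covariate its log2 change at 48 h was 1.63 (adjusted p = 1.45e-06). Of all 3616 probe sets tested in that set, 2131 had a called slope. At 24 h the rise of 1.54 ± 0.48 (log2, adjusted p = 0.0310) was lost without treated replicate 1 or without treated replicate 2. No member slope was called in the DEHP set or in the VPA set, where 15 and 7 probe sets were called.

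The second Abcd3 probe set, D90038_at, rose as well. After clofibrate for 48 h it gave 6210.6, 3173.9, 3681.3, 2725.4 and 4598.7, against 1699.0, 2008.9, 2402.9, 1864.9 and 2474.6 in vehicle animals. Treated animals were all above vehicle animals, with a 1.89-fold rise (log2 change 0.92 ± 0.23, adjusted p = 0.0059 in limma). The rise at 24 h, 1.02 ± 0.24 (log2, adjusted p = 0.0042), was lost without treated replicate 3, the animal with the highest signal. That array also had the highest log2 3' to 5' ratio of the set (2.74). In the clofibrate set D90038_at climbed by 0.33 per unit of log2 ratio (adjusted p = 0.0043 in limma). The 24 h call held with the ratio as a covariate. It was lost without the 4 arrays deposited to 1 decimal, which include this replicate (adjusted p = 0.0656). DEHP for 48 h gave a 1.75-fold rise (log2 change 0.81 ± 0.16, adjusted p = 3.618e-04). After VPA the changes of 0.45 ± 0.17 at 24 h and 0.49 ± 0.17 at 48 h (adjusted p = 0.0409 and 0.0275) were each lost without any 1 of several arrays. At 24 h these were the 3 treated replicates, 48 h vehicle replicates 1, 3 and 5, and 168 h vehicle replicates 4 and 5. At 48 h they were vehicle replicates 1 and 3 and treated replicate 4. Both were also lost with no filter (adjusted p = 0.0778 at 24 h and 0.0554 at 48 h) and in 1 fit of all 18 groups (0.0879 and 0.06), and the first with scan day as a block (0.221). The pooled RNA gave log2 differences of -0.30 at 24 h and -0.36 at 48 h on this probe set.

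Abcd3 rc_AA946532_at was also called at 4 h after VPA and at 168 h after DEHP. VPA for 4 h gave 12743.0, 12545.9 and 15080.3, above the highest vehicle signal of 12467.0 by a small margin (log2 change 0.52 ± 0.15, adjusted p = 0.0171 in limma), and the call was lost without treated replicate 3. It was lost as well with arrays centred on their median, with replicate number as a block, with the 168 h vehicle alone and in 1 fit of all 18 groups. On D90038_at the log2 change at 4 h after VPA was -0.23 ± 0.17 and was not called (adjusted p = 0.356 in limma). The VPA response on rc_AA946532_at grew by 1.06 ± 0.19 between 4 and 24 h (adjusted p = 7.566e-04). DEHP for 168 h gave 23863.5, 29617.2, 21075.5, 25660.3 and 28794.3, against 12871.8, 20836.4, 14063.4, 14335.6 and 16584.7 in vehicle animals. The groups did not overlap, with a log2 change of 0.72 ± 0.20 (adjusted p = 0.0483) that was lost without any 1 of 17 of the 26 arrays. It held without any 1 of treated replicates 2 and 3 at 4 and at 24 h, treated replicates 1 and 3 and vehicle replicate 1 at 48 h, and treated replicate 3 and vehicle replicate 2 at 168 h. The call was also lost with no filter, with quantile normalization, with replicate number as a block, with the 3' to 5' ratio as a covariate and in 1 fit of all 18 groups. D90038_at changed there by 0.07 ± 0.16 (log2, adjusted p = 0.898 in limma). The difference of the DEHP response on rc_AA946532_at from the clofibrate response at 168 h was not called (log2 difference -0.79 ± 0.45, clofibrate minus DEHP, adjusted p = 0.858), nor was that from the VPA response (0.52 ± 0.46, DEHP minus VPA, adjusted p = 0.998).

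Pxmp2, the channel protein, varied little between arrays. Over the 76 individual arrays X70223_at lay between 7210.8 and 18407.8, with a coefficient of variation of 13.2%, and among vehicle animals alone the coefficient was 8.2 to 10.3% by set. VPA for 48 h gave 12058.9, 11394.2, 13912.5 and 11003.5, against 16831.5, 14092.7, 13970.2, 13624.6 and 15554.6 in vehicle animals. The groups overlapped, and the fall of 0.29 ± 0.10 on the log2 scale was the only call of this probe set in 12 comparisons (log2 change -0.29, adjusted p = 0.0276 in limma). It was lost without any 1 of 5 arrays, which were vehicle replicates 1 and 5 and treated replicates 1, 2 and 4. After DEHP the log2 changes at the 4 times ran between -0.06 ± 0.09 and 0.13 ± 0.09. Hepatocyte marker probe sets fell in the same VPA comparison, 13 of 16, with summed signals of 198206.0 to 254904.5 in treated animals and 307479.5 to 392596.0 in vehicle animals. Its part in the Pxmp2 value was not tested.

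Catalase was not called higher in any comparison, and 5 changes of its probe sets, all lower, were called after DEHP or VPA. On M11670_at VPA for 24 h gave 11307.1, 10979.6 and 8373.6, against a lowest of 11860.0, a median of 16534.8 and a highest of 18099.1 in vehicle animals. Each treated animal was below each vehicle animal, and the fall was 1.55-fold (log2 change -0.64 ± 0.14, adjusted p = 0.0014 in limma). At 48 h the VPA-treated animals gave 12038.2, 8082.4, 8282.4 and 12028.1, against 16524.6, 11860.0, 14770.2, 17734.9 and 16817.8 in vehicle animals, a fall of the same 1.55-fold (log2 change -0.63 ± 0.15, adjusted p = 0.0014) with vehicle replicate 2 inside the treated range. In 1 fit of all 18 groups none of the 5 catalase calls held, and the adjusted p in limma was 0.265 and 0.273 for these 2. At 168 h the log2 change was -0.08 ± 0.15 (adjusted p = 0.965).

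After DEHP for 24 h both catalase probe sets were lower. M11670_at gave 8282.7, 9790.9 and 11039.4, against 10718.5, 13904.3 and 22134.6 as the lowest, median and highest vehicle signal (log2 change -0.58 ± 0.18, adjusted p = 0.0148 in limma). rc_AA926149_g_at gave 9984.7, 12009.9 and 14468.6, against 14375.0, 17949.8 and 25568.8 in vehicle animals (log2 change -0.58 ± 0.15, adjusted p = 0.0039). In each case only the highest treated animal reached into the vehicle range. The first call was lost without treated replicate 1 or 2, and the second without treated replicate 1. In 1 fit of all 18 groups the adjusted p was 0.364 and 0.132. At 48 h the change was called on rc_AA926149_g_at alone (log2 change -0.40 ± 0.14, adjusted p = 0.0309), and it was lost without vehicle replicate 1, 3 or 5 or treated replicate 1 or 4. It was lost as well with scan day as a block (adjusted p = 0.0589) and in 1 fit of all 18 groups (0.299). On M11670_at it was -0.28 ± 0.17 (adjusted p = 0.224).

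After VPA the second catalase probe set was not called. At 48 h rc_AA926149_g_at gave 13275.7, 9305.1, 2492.5 and 15685.9, against 12799.8, 10087.1, 8428.2, 18246.2 and 20838.6 in vehicle animals, and treated replicate 3 stood far below the rest. The log2 change was -0.67 ± 0.36 (adjusted p = 0.143 in limma). Red cells also carry catalase. Of the 8 erythroid markers listed, 4 were on the array, and their summed signal at 48 h after VPA was 10155.2 to 19624.4 in treated animals and 33833.8 to 68745.4 in vehicle animals. At 24 h after VPA it was 21866.1 to 27697.2 in treated animals, and 3 of 5 erythroid probe sets were called lower. At 24 h after DEHP it was 39949.9 to 56641.0 in treated animals, and 0 of 4 were called (limma). At 48 h after DEHP 2 of 4 erythroid probe sets were called lower. Hepatocyte marker probe sets were called lower in 8 of 15 at 24 h and 7 of 15 at 48 h after DEHP. After VPA they were lower in 14 of 16 at 24 h and 13 of 16 at 48 h. Of all probe sets 17.5%, 21.1%, 15.6% and 18.4% were called lower in these 4 comparisons. The part of red cells or of the hepatocyte markers in the catalase values was not tested.

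In the clofibrate set M11670_at varied widely.

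**Figure D4:**
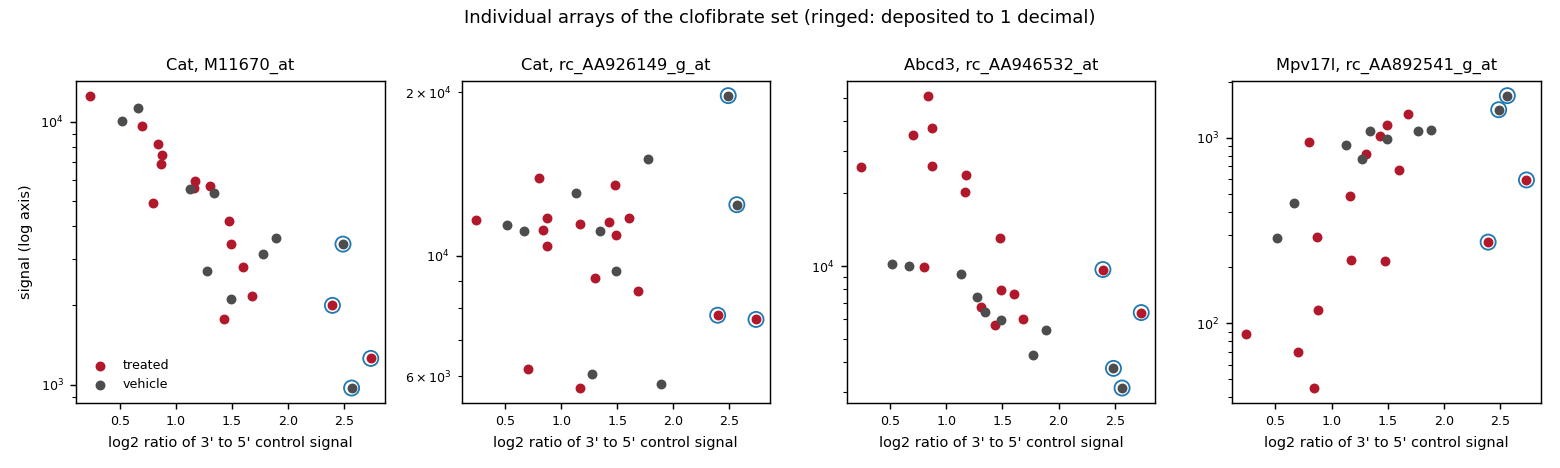
Signal (log axis) against the log2 ratio of 3' to 5' control signal on the 26 individual clofibrate arrays, for 2 catalase probe sets, Abcd3 and Mpv17l, with treated and vehicle animals in colour and the 4 arrays deposited to 1 decimal ringed. Catalase M11670_at and Abcd3 rc_AA946532_at fall with the ratio in both arms, while Mpv17l rc_AA892541_g_at climbs with it.

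Its vehicle signals ran between 970.9 and 11311.8 (coefficient of variation 70.3%, n = 10), and it fell by 1.39 per unit of log2 ratio (adjusted p = 1.719e-08 in limma). Clofibrate for 48 h gave 4171.0, 9645.3, 8234.4, 7452.2 and 2001.6, against 11311.8, 5336.4, 3137.1, 970.9 and 3421.6 in vehicle animals, a log2 change of 0.59 ± 0.61 (adjusted p = 0.524). The probe set rc_AA926149_g_at did not follow the ratio past the threshold (slope -0.06, adjusted p = 0.694). It gave 13479.4, 6189.5, 11181.4, 10429.6 and 7774.0 in treated animals, against 11094.8, 11107.1, 15105.9, 12425.0 and 19732.8 in vehicle animals, and the log2 change of -0.52 ± 0.25 was not called (adjusted p = 0.157). The third catalase probe set, rc_AA926149_at, was under the floor on 40 of 76 individual arrays and was not tested.

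Mpv17l fell in the clofibrate set, the only one where its probe sets were bright enough to be tested. Its probe set rc_AA892541_at passed the filter only through the 48 h vehicle group, at a mean of 517, and with no filter the 48 h call held (adjusted p = 0.00124 in limma). On rc_AA892541_g_at the clofibrate-treated animals at 48 h gave 218.0, 70.2, 44.9, 118.6 and 273.9, against 442.6, 1091.3, 1086.7, 1682.7 and 1413.4 in vehicle animals. No treated animal reached the lowest vehicle signal, and since 3 treated signals lay under the floor the fall was at least 5.73-fold (log2 change -2.52 ± 0.41, adjusted p = 8.110e-05 in limma). On rc_AA892541_at the treated animals gave 205.1, 34.9, 42.4, 181.1 and 197.6, against 276.9, 440.6, 470.3, 785.9 and 609.4 in vehicle animals, at least 2.78-fold lower and also without overlap (log2 change -1.48 ± 0.28, adjusted p = 6.094e-04). Both probe sets climbed with the ratio of 3' to 5' signal, by 0.88 and 0.54 per unit (adjusted p = 7.121e-07 and 7.364e-05). That ratio averaged 1.26 ± 0.70 in the treated and 1.77 ± 0.80 in the vehicle animals at 48 h (SD, n = 5 each). With the ratio as a covariate the log2 changes at 48 h were -2.07 on rc_AA892541_g_at and -1.20 on rc_AA892541_at (adjusted p = 2.37e-07 and 6.25e-05).

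At 168 h Mpv17l was back among the vehicle signals, with a log2 change of 0.50 ± 0.41 on rc_AA892541_g_at (adjusted p = 1 in limma). The responses at 48 and 168 h differed by at least 3.02 ± 0.58 on rc_AA892541_g_at and at least 1.78 ± 0.40 on rc_AA892541_at (log2, adjusted p = 0.0014 and 0.0057). At 24 h both were called lower, by at least 1.10 ± 0.29 on rc_AA892541_at and by 1.39 ± 0.42 on rc_AA892541_g_at (log2, adjusted p = 0.0127 and 0.0299), and both calls were lost without treated replicate 1 or 2. Both were also lost with a floor of 50, and that on rc_AA892541_g_at with no filter. At 4 h only rc_AA892541_at was called (log2 change -1.05 ± 0.29, adjusted p = 0.0466), and this was lost without any 1 of 19 of the 26 arrays. It held only without 24 h treated replicate 1, 2 or 3, 48 h treated replicate 5, 48 h vehicle replicate 1, or 168 h vehicle replicate 2 or 5. With no filter, or with a floor of 50, the 4 h call was lost too.

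In the other sets Mpv17l was dim. At 48 h after DEHP rc_AA892541_g_at gave 156.6, 59.5, 89.0, 143.0 and 98.2, against 263.5, 231.3, 406.1, 206.7 and 114.7 in vehicle animals, and 4 of the 5 treated signals lay under the floor. At 48 h after VPA it gave 260.4, 215.2, 113.1 and 108.0, against 362.3, 598.6, 186.5, 379.1 and 576.0 in vehicle animals. The treated signals were mostly lower in both sets and the groups overlapped, and neither change was called with all 8740 probe sets tested. In the fit of all 18 groups the clofibrate response at 48 h was below the DEHP response on both probe sets (log2 difference -1.86 ± 0.50 on rc_AA892541_g_at and -1.30 ± 0.30 on rc_AA892541_at, adjusted p = 0.0287 and 0.0097). It was also below the VPA response on rc_AA892541_at (log2 difference -1.06 ± 0.31, adjusted p = 0.0166), but on rc_AA892541_g_at that difference was not called (-1.48 ± 0.52, adjusted p = 0.0506). Of the 10 DEHP vehicle signals 2 lay under the floor on rc_AA892541_g_at and 6 on rc_AA892541_at, and a signal raised to the floor understates a fall; the doses differed too.

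Related genes, not all of them peroxisomal, were read from 5 lists, with all their probe sets that passed the filter. Among the other peroxins and division factors, 6 of 17 genes were on the array. In the clofibrate fit limma called 0 of 7 probe sets at each time, and 0 had an unadjusted p under 0.05. At 48 h, 1 of 9 probe sets was higher in the DEHP fit, where 12.8% of all were, and 1 higher and 3 lower of 8 in the VPA fit, where 21.3% and 18.4% were. Dnm1l, the GTPase that cuts peroxisomes and mitochondria, passed the filter of the VPA fit only through treated groups, and its value with no filter is not given here. It was higher after VPA for 48 h (log2 change 0.83 ± 0.29, adjusted p = 0.0268 in limma), with 1 vehicle signal raised to the floor. Fis1, which recruits Dnm1l, was 1.36-fold lower there (-0.44 ± 0.13, adjusted p = 0.0114), and Pex6, an ATPase of receptor recycling, was 1.43-fold lower on D63673_g_at (-0.51 ± 0.14, adjusted p = 0.0059) but not called on D63673_at (-0.03 ± 0.16, adjusted p = 0.909). Pex14, the docking site of the import receptor, was 1.86-fold higher after DEHP for 24 h on AB017544_g_at (0.90 ± 0.33, adjusted p = 0.0375) but not called on AB017544_at (0.08 ± 0.12, adjusted p = 0.663).

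Other peroxisomal membrane proteins were called higher at 48 h in 3 of 9 probe sets after clofibrate, 5 of 9 after DEHP and 6 of 10 after VPA, with 0 lower in each (limma). Over all probe sets, 7.27%, 12.8% and 21.3% were called higher at these times. Of the members of this list called after VPA, Gnpat rc_AA799779_at passed the filter only through treated groups. Slc27a2, a very-long-chain acyl-CoA synthetase, was 3.81-fold higher after clofibrate (log2 change 1.93 ± 0.38, adjusted p = 8.233e-04), 1.90-fold after DEHP and 1.52-fold after VPA. Slc25a17, a carrier of cofactors in the peroxisomal membrane, was 1.78-fold higher after VPA (0.83 ± 0.15, adjusted p = 1.517e-04).

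The β-oxidation and α-oxidation list had 9 of 15 genes on the array and was called higher at 48 h in 10 of 15 probe sets after clofibrate, 11 after DEHP and 9 after VPA. Lower calls numbered 1, 2 and 0. Of all probe sets 7.27%, 12.8% and 21.3% were called higher at that time. Acaa1b, the peroxisomal thiolase, was 45.5-fold higher after clofibrate, 29.0-fold after DEHP and 19.4-fold after VPA at 48 h. Ehhadh, the bifunctional enzyme of the same pathway, was 37.9-fold, 12.3-fold and 6.14-fold higher in this order of compounds. At 168 h, 7 of 15 were still called higher after DEHP, where 2.13% of all probe sets were.

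Oxidases that form hydrogen peroxide, the substrate of catalase, were not called higher by limma in any of the 12 comparisons among the 6 genes on the array, and 1 probe set was higher at an unadjusted p under 0.05, at 168 h after VPA. At 48 h 3 of 6 probe sets were called lower after clofibrate, 6 of 8 after DEHP and 5 of 8 after VPA, where 12.7%, 21.1% and 18.4% of all were (limma). Of those after VPA, Acox3 X95188_at passed the filter only through vehicle groups. Hao2, a hydroxyacid oxidase, was 4.53-fold lower at 48 h after DEHP (log2 change -2.18 ± 0.18, adjusted p = 6.478e-10), and 4.87-fold lower at 24 h after VPA (-2.28 ± 0.14, adjusted p = 2.143e-11). Xdh, xanthine dehydrogenase, was 3.33-fold lower at 48 h after DEHP (-1.73 ± 0.17, adjusted p = 1.282e-08). Uox, the urate oxidase of rodent peroxisomes, was 1.72-fold lower at 4 h after VPA (-0.78 ± 0.13, adjusted p = 3.036e-04).

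Other antioxidant enzymes gave 15 of 28 probe sets higher and 1 lower at 48 h after DEHP, 12 higher and 6 lower after VPA, and 1 higher after clofibrate. Of all probe sets 12.8%, 21.3% and 7.27% were called higher in these comparisons, and 21.1% and 18.4% lower after DEHP and VPA. Gpx4, which reduces lipid peroxides, was 1.63-fold higher at 48 h after clofibrate (log2 change 0.71 ± 0.20, adjusted p = 0.0146 in limma) and 1.72-fold higher at 24 h after DEHP (0.78 ± 0.12, adjusted p = 1.400e-05). Gpx1, the main cytosolic glutathione peroxidase, was 1.71-fold lower at 48 h after VPA (-0.77 ± 0.10, adjusted p = 1.264e-06), and Sod1, a superoxide dismutase, was lower at 24 h on 2 of its 3 probe sets (log2 change -0.59 ± 0.08 on M21060_s_at, adjusted p = 5.343e-06). Prdx3, a mitochondrial peroxidase, was 1.60-fold higher at 48 h after VPA on rc_AA799650_at (0.68 ± 0.10, adjusted p = 5.656e-06) but not called on rc_AA799650_g_at (-0.03 ± 0.16, adjusted p = 0.913).

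Across the 18 group means, each taken relative to its compound's vehicle, the profile of Pex11a rc_AA892128_at was most like those of Cyp4a1 (Pearson r = 0.979), Ech1 (0.970) and Gde1 (0.967). That of Abcd3 rc_AA946532_at was most like Cyp4a1 (0.968), Pex11a (0.967) and Aco1 (0.955), and that of Pex19 most like Acat1 (0.942), Acads (0.934) and Mgll (0.932). Catalase rc_AA926149_g_at stood nearest to Msx2 (0.872), Mbl2 (0.871) and Cyp2c13 (0.860), and Pxmp2 nearest to Alb (0.874), Pla2g6 (0.863) and Tor1aip1 (0.861). Pex2 lay closest to Ddost (0.874), Hspa5 (0.848) and Ppp2r1a (0.832), and Mpv17l closest to Spint2 (0.876), Ppox (0.872) and Sorbs2 (0.851). These values describe 18 means that share arrays and vehicle groups within a compound.

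Arrays of pooled RNA, 1 per group and outside every test, gave the same sign as the individual animals in 46 of the 49 called changes. The other 3 were Abcd3 D90038_at at 24 and 48 h after VPA and catalase M11670_at at 48 h after VPA, where the pooled difference was 0.01. Their log2 change lay a median of 0.21 and at most 0.95 from that of the animals. Arrays were scanned over 14 days, and within the days that held both arms all 101 differences between treated and vehicle animals, over the 49 called changes, had the sign of the call. These differences come from the same arrays that gave the calls, so their sign is no separate check on scan day. With scan day as a block 5 of the 49 calls were lost, which were 2 of Pex2 and 1 each of Pex11a, Abcd3 and catalase.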

How the data were processed

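Liver RNA was hybridized to Affymetrix rat arrays, 10 µg per labelling, and the deposited intensities are MAS5 signals that the authors scaled to 1500, per the labels. The scanner settings files, deposited as other text, gave only the scan day. The 94 columns were assigned by name, and 0 columns had no sample. From these intensities log2 values were computed here after a floor of 150. The array's controls were dropped, and a probe set was kept where any group of the fit averaged 500 or more. limma 3.58.1 (lmFit, eBayes with trend, R 4.3.3) was fitted per compound, and once over 18 groups for differences between compounds, with Benjamini-Hochberg adjustment over 3616, 4092, 4269 and 4503 probe sets. The number of arrays limits the precision. Same-numbered arrays did not deviate together (median correlation 0.01, -0.02 and 0.02 in the clofibrate, DEHP and VPA sets), so no pairing was used. All member probe sets are named, with up to 4 called genes of smallest adjusted p per list and compound, and the 3 genes most like each member. Members and lists were chosen with earlier results of these data known. A probe set of 1 symbol can also detect related transcripts. Scripts were tested on simulated data. Alternatives covered floor, filter, scaling, blocks, vehicle groups, covariate, weights and single arrays. Python 3.11.15 and matplotlib 3.10.9 drew the figures.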

Additional observations from a re-analysis of the deposited data

Results flagged for a closer look

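Of 112 combinations of a tested member probe set and a group of 4 or 5 arrays, 3 held an array far from the others (2.68%), where chance gives about 1 in 20. Pex2 X57988mRNA_s_at read 379.1 in replicate 3 of the VPA-treated animals at 168 h, against 490.2 to 507.8 in the others of the group. In replicate 3 of the VPA-treated animals at 48 h it read 509.3, against 435.1 to 444.0. Mpv17l rc_AA892541_g_at read 288.5 in replicate 5 of the clofibrate set's 168 h vehicle animals, against 769.6 to 1095.2.

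The response to a compound differed between neighbouring times in 20 called cases, all tested in limma as differences of responses on the log2 scale. From 4 to 24 h, Pex19 gained 1.68 after clofibrate. After VPA in the same interval, Pex11a gained 1.66 on AJ224120_at and 1.31 on rc_AA892128_at, and Abcd3 gained 0.68 on D90038_at and 1.06 on rc_AA946532_at. From 24 to 48 h, Pex11a rc_AA892128_at gained 0.93 after VPA.

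Between 48 and 168 h most responses shrank. The later minus the earlier response after clofibrate was -1.97 and -3.30 for Pex11a (AJ224120_at and rc_AA892128_at), -1.49 for Pex19 and -2.23 for Abcd3 rc_AA946532_at. For Mpv17l, which had been lower at 48 h, it was at least 1.78 on rc_AA892541_at and at least 3.02 on rc_AA892541_g_at. After DEHP it was -1.69 for Pex11a AJ224120_at, -0.74 for Abcd3 D90038_at and -0.89 for Abcd3 rc_AA946532_at. After VPA it was -3.28 and -4.15 for Pex11a, -1.16 for Pex19, -0.72 for Abcd3 D90038_at and -1.66 for Abcd3 rc_AA946532_at. Percentages of all tested probe sets called in these intervals were 5.89% for clofibrate, 13.6% for DEHP and 23.5% for VPA between 48 and 168 h, and 5.12% and 11.8% for clofibrate and VPA between 4 and 24 h.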

How the results depend on the processing

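Of the 49 calls of member probe sets 30 held in every other setting and without each single array, 19 were lost in 1 or more settings, 17 without 1 or more single arrays, and 0 changed sign. All Pex11a calls held except that at 4 h after DEHP. By setting, the calls lost numbered 12 with a replicate block, 11 in 1 fit of all groups, 10 with no filter, 9 with centred arrays, 9 with the 168 h vehicle alone, 7 with quantile normalization and 5 with scan day as a block. The number called at 4 h after clofibrate was 5 in 1 fit of all groups, with the 3' to 5' ratio as covariate and with array weights, against 3. At 24 h after clofibrate it was 5 with no filter and 5 with a replicate block, and 4 with the 168 h vehicle alone, against 8. At 4 h after DEHP it was 0 with no filter, 0 with a replicate block, 0 with the 48 h vehicle alone and 3 with array weights, against 1. At 24 h after DEHP it was 3 in 1 fit of all groups, against 5. At 4 h after VPA it was 2 in 1 fit of all groups, 2 with a replicate block and 2 with the 168 h vehicle alone, against 4. Differences between times numbered 11 with no filter, against 20, and differences between compounds 5 with a floor of 50, 5 without the arrays given to 1 decimal and 30 with array weights, against 8. The cause was not tested. Leaving out single arrays gave 2 to 4, 4 to 8, 7 and 0 calls for clofibrate at 4, 24, 48 and 168 h, 0 to 3, 3 to 5, 4 to 5 and 2 to 3 for DEHP, and 2 to 4, 4 to 7, 5 to 7 and 0 for VPA. It gave 17 to 22 for times and 6 to 11 for compounds. Counts moved by over 1.5 times without clofibrate 24 h treated replicate 1 (4) or 2 (5), DEHP 24 h treated replicate 1 (3 at 24 h) and VPA 4 h treated replicate 3 (2). At 4 h after DEHP they moved without treated replicate 1 or 2 (0), 168 h vehicle replicate 2, or 48 h treated replicate 1 or 3 (2 each), and without 48 h vehicle replicate 1 or 24 h treated replicate 2 or 3 (3 each). Centring arrays on their median shifted the median log2 change of all probe sets by -0.20 at 4 h after VPA, 0.16 and 0.11 at 48 and 24 h after clofibrate and 0.13 at 48 h after DEHP. With it 33.1% of calls at 4 h after VPA were higher, against 68.0%, 65.0% against 36.4% at 48 h after clofibrate, 59.6% against 42.6% at 24 h after clofibrate, 57.4% against 37.8% at 48 h and 59.1% against 46.3% at 24 h after DEHP. Quantile normalization gave 51.7% at 4 h after VPA.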
